A study of Homo sapiens with 7 samples.

Results

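AP-1 and immediate early transcription factors were followed in Daoy cells, an established human medulloblastoma line, through 10 genes chosen by symbol: the Fos subunits FOS, FOSB, FOSL1 and FOSL2, the Jun subunits JUN, JUNB and JUND, and the factors ATF3, EGR1 and IER2. Each gene was read by 1 row of the array, so the 10 genes are 10 of 24000 rows and 10 of the 17217 genes that could be named, and the value of a row is also the value of its gene. The cells were labelled WT with no treatment named, grown with 10% fetal bovine serum, penicillin and streptomycin, and their total RNA was labelled with Cy3 and hybridised to single-colour arrays. Biological replicate 2 was read on 4 arrays and biological replicate 1 on 3 arrays, and each replicate had a 4-plex slide of its own, so culture and slide cannot be told apart. Repeat arrays of 1 replicate share its RNA, as far as the labels tell, so a p-value here measures the spread between arrays and not between cultures.

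AP-1 is a pair of bZIP proteins, held together by a leucine zipper, that binds DNA as a Jun-Jun or Jun-Fos dimer. Growth factors, serum and stress act through MAP kinases on AP-1 and on serum response factor, and genes such as FOS, EGR1 and IER2 are transcribed within minutes without new protein synthesis, hence the name immediate early genes. Their transcripts are short-lived, so that in cells that grow steadily in serum the slower members FOSL1, FOSL2 and JUND usually outlast FOS. AP-1 is known in tumours for its part in proliferation, invasion and the expression of matrix proteases and cytokines.

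Of the 10 factors, 9 were expressed above background and 8 were higher in biological replicate 2 than in replicate 1, with 0 lower. Values are log2 intensities, where 1 unit is a doubling of signal. Background was taken as the 95th percentile of 364 olfactory receptor genes and lay at 7.54. EGR1 was 3.83-fold higher, JUNB 2.92-fold, FOSL1 2.07-fold, IER2 1.79-fold and FOSL2 1.77-fold, whereas JUND showed no detectable difference. A gene was called at an adjusted p under 0.05 (limma, Benjamini-Hochberg over all named genes). Across the array 49.8% of named genes were called in either direction, 25.5% higher and 24.2% lower, so the count of 8 of 10 is read against 25.5%. A call that came with a difference of at least 0.5 was made for 6 of the 10 factors, against 17.3% of named genes, and one with a difference of at least 1 for 3 of 10, against 4.97%. The counts of 8 and 6 include JUN, which lay under background. Of the 9 factors above background 7 were called higher, against 3024 of the 10430 named genes above background. The median difference of the 10 factors was 0.76 on the log2 scale, and the median of all named genes was -0.0063. The comparison sets 1 RNA source against another and tests no condition. A bulk extract gives 1 value for all cells, so fewer cells that express a gene and less RNA per cell cannot be told apart.

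**Figure D1:**
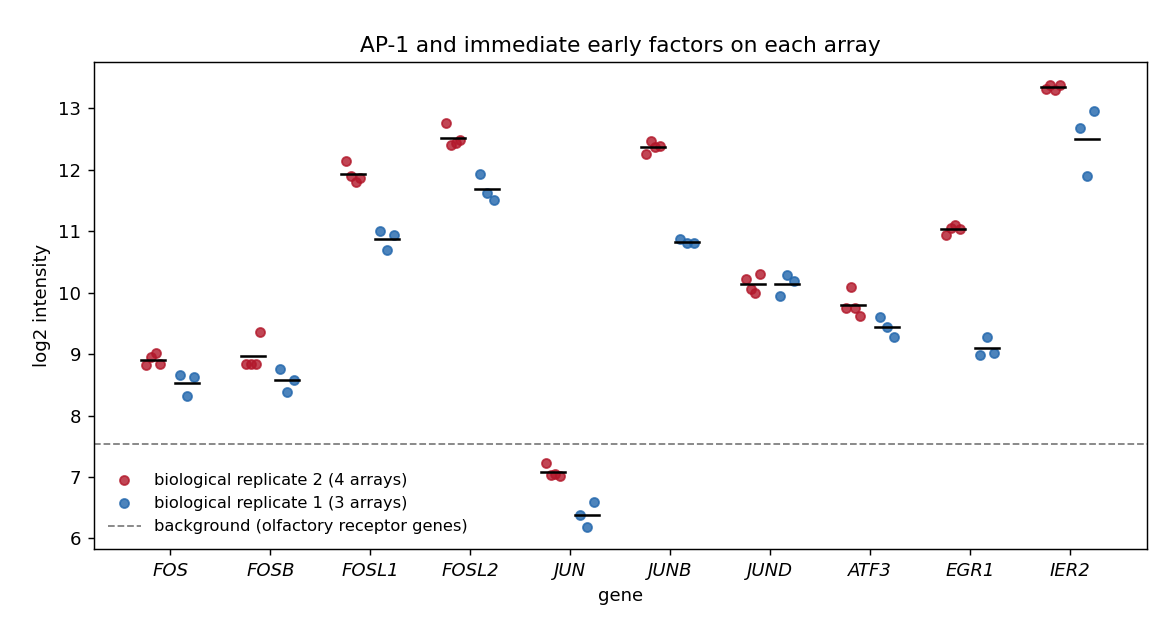
Log2 intensity (vertical axis) of the 10 factors on each array, with biological replicate 2 (4 arrays) left of biological replicate 1 (3 arrays), black bars at the replicate means and a dashed line at the background of 7.54. The arrays of the replicates are apart for EGR1, JUNB and FOSL1 and intermixed for JUND, and JUN lies under the background on every array.

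EGR1, a zinc finger factor that binds GC-rich sites and is a classical target of serum response factor, differed most. It stood at 10.94, 11.05, 11.10 and 11.04 on the arrays of replicate 2, against 8.98, 9.29 and 9.02 on those of replicate 1. The lowest array of replicate 2 lay 1.65 above the highest of replicate 1. The difference was 1.94 ± 0.10 (SE), or 3.83-fold with a 95% interval of 3.27 to 4.49 (adjusted p = 3.09e-06), larger than that of 99.7% of named genes. The gene's level over both replicates was 10.06 ± 1.37 (SD, n = 2). The sequence just before its start is shown because EGR1 differed most and because 2 CArG boxes, the site of serum response factor, lie in it. It is the RefSeq sequence of GRCh38.p14, chr5:138465229-138465478 on the plus strand, the 250 bases that end at the base before the transcription start. Capitals mark matches to 5 motifs that were searched on both strands: TGANTCA, the AP-1 site also called TRE, TGACNTCA, the cAMP response element and its single-base variants, the CArG box, TATAAA, and GCGNGGGCG, the site of EGR factors.
EGR1: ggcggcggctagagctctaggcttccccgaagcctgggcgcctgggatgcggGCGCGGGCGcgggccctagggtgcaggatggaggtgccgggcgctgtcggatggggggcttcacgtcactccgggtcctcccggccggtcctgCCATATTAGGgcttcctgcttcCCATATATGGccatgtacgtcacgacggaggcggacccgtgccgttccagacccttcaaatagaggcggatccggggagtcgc
The CArG boxes of EGR1 are the matches CCATATTAGG and CCATATATGG, 105 and 83 bases before the start at their first base, and the match GCGCGGGCG to the EGR site begins 198 bases before it. A CArG box was found in 1.17% of 34788 such windows and an EGR site in 8.41%. A window was on hand for 9 of the 10 factors, ATF3 with 2 of them. Within these 250 bases EGR1 was the only one of the 9 genes with a CArG box or an EGR site. None of the 9 held TGANTCA there, which occurred in 6.59% of all windows. Bases further from the start were not searched, so this does not show that the other genes lack such sites. A match is a stretch of letters and not evidence of binding.

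IER2, a nuclear protein of the immediate early class whose function is less well defined, was higher and well above background. On the 4 arrays of replicate 2 it gave 13.31, 13.38, 13.30 and 13.39, against 12.68, 11.90 and 12.95 on the 3 arrays of replicate 1. The arrays of replicate 2 were close together and those of replicate 1 spread over more than 1 unit, with array 2 the lowest. The difference was 0.84 ± 0.21 (SE), or 1.79-fold with an interval of 1.29 to 2.48 (adjusted p = 0.00902), and the groups were apart by 0.35. Without array 2 of replicate 1 the difference was 0.53 (adjusted p = 0.0044). Its level over both replicates was 12.93 ± 0.59 (SD, n = 2). Intensity depends on the probe as well as on the transcript, so the levels of different genes are not ranked against each other.

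ATF3, a stress-induced bZIP factor that can pair with Jun proteins, differed little. It read 9.75, 10.10, 9.76 and 9.62 in replicate 2, against 9.61, 9.45 and 9.28 in replicate 1. The lowest array of replicate 2 lay only 0.014 above the highest of replicate 1. Its difference of 0.36 ± 0.13 (SE, adjusted p = 0.0438) lost the call without any 1 of 5 of the 7 arrays, with an adjusted p of up to 0.152. Its level over both replicates was 9.63 ± 0.26 (SD, n = 2).

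Among the Jun subunits, JUNB rose and JUND did not differ detectably. JUNB, which often restrains JUN and is itself induced by serum, stood at 12.26, 12.47, 12.37 and 12.39 in replicate 2, against 10.88, 10.80 and 10.80 in replicate 1. The gap between the groups was 1.39, and the difference was 1.54 ± 0.09 (SE), or 2.92-fold with an interval of 2.55 to 3.34 (adjusted p = 3.75e-06). JUND, the Jun protein that is present in resting cells and varies least with growth signals, gave 10.22, 10.06, 10.00 and 10.30 in replicate 2, against 9.94, 10.28 and 10.19 in replicate 1. These arrays overlapped, and the difference of 0.0049 ± 0.12 (SE, adjusted p = 0.978) had an interval of -0.26 to 0.27. As a ratio the interval ran from 0.84 to 1.20. The ratio of JUNB to JUND within an array was 2.91-fold higher in replicate 2. The SD of this ratio over arrays was 0.18 in replicate 2 and 0.22 in replicate 1, on the log2 scale. A constant shift of a whole array leaves such a ratio unchanged. A change that depends on intensity, which quantile normalization can make, does not. Over both replicates JUNB had a level of 11.60 ± 1.09 and JUND of 10.14 ± 0.0035 (SD, n = 2).

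JUN, the founding subunit, was under background on all 7 arrays. It read 7.23, 7.03, 7.04 and 7.02 in replicate 2, against 6.38, 6.18 and 6.59 in replicate 1, where the replicates' own backgrounds were 7.24 and 7.79. Replicate 2 was higher on every array (adjusted p = 0.00089), but no fold is given because both groups lay under background. A row at background can belong to a transcript that is present, so the value gives no statement on whether JUN was expressed. The windows before the 3 Jun genes are set side by side because JUNB passed the test well above background and JUND did not pass. They lie at chr1:58784048-58784297 on the minus strand for JUN, chr19:12791236-12791485 on the plus strand for JUNB and chr19:18281623-18281872 on the minus strand for JUND, in the same build and with the same meaning of the capitals.
JUN: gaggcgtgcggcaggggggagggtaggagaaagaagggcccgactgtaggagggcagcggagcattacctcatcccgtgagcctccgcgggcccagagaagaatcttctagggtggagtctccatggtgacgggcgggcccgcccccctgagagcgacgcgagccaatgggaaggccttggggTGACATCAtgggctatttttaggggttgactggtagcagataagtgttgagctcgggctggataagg
JUNB: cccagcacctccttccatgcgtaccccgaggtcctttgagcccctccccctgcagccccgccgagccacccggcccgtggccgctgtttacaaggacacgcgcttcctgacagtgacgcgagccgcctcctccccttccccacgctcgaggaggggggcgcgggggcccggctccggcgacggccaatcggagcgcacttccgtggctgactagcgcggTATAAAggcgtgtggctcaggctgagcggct
JUND: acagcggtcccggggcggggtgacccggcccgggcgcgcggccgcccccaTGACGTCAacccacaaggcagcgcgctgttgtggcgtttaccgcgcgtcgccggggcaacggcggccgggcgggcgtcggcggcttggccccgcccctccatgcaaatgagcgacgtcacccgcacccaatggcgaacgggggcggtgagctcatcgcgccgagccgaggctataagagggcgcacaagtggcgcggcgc
JUN held TGACATCA, 67 bases before its start, a sequence known as a site of JUN and ATF2 dimers. JUND held the full cAMP response element TGACGTCA, 200 bases before its start, and JUNB neither, but a TATAAA at 31 bases. A match to TGACNTCA also occurred before ATF3, and in 6.84% of all windows. TATAAA occurred before FOS, FOSB and JUNB, at 33, 30 and 31 bases, and in 1 of the 2 windows of ATF3, at 230 bases. It occurred in 10.8% of all windows.

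Among the Fos subunits, FOSL1, FOSL2 and FOS rose and FOSB did not pass the test. FOSL1, also called FRA1, a stable Fos protein without the strong activation domain of FOS, stood at 12.14, 11.90, 11.80 and 11.87 in replicate 2, against 11.01, 10.69 and 10.93 in replicate 1. Its arrays did not overlap, and the difference was 1.05 ± 0.12 (SE), or 2.07-fold with an interval of 1.73 to 2.48 (adjusted p = 9.62e-05). FOSL2, or FRA2, the other protein of this kind, gave 12.76, 12.40, 12.43 and 12.48 in replicate 2, against 11.94, 11.63 and 11.51 in replicate 1. It did not overlap either, at 0.83 ± 0.13 (SE), or 1.77-fold with an interval of 1.45 to 2.17 (adjusted p = 0.000738). Over both replicates FOSL1 had a level of 11.40 ± 0.74 and FOSL2 of 12.11 ± 0.58 (SD, n = 2).

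FOS, the partner that forms the most active dimers with JUN, had a level of 8.72 ± 0.26 (SD, n = 2). It read 8.82, 8.95, 9.02 and 8.83 in replicate 2, against 8.65, 8.32 and 8.63 in replicate 1. The groups were apart by 0.16, and the difference was 0.37 ± 0.11 (SE, adjusted p = 0.0198), a call that ended without array 2 of replicate 1 (adjusted p = 0.0591) or array 3 of replicate 2 (adjusted p = 0.0540). FOSB, an inducible Fos protein with a known short splice form, gave 8.84, 8.83, 8.84 and 9.36 in replicate 2, against 8.76, 8.38 and 8.57 in replicate 1. Its arrays were apart by 0.072, with array 4 of replicate 2 far above its repeats, and the difference of 0.40 ± 0.15 (SE) did not pass (adjusted p = 0.0562). With the array number as a replicate block FOSB passed (adjusted p = 0.0357), and FOS passed narrowly (adjusted p = 0.0499). In that fit array 3 of replicate 2 has no partner and adds nothing to the differences, which were 0.44 and 0.33. Without this array and without the block the differences were the same, and neither gene passed (adjusted p = 0.0617 for FOSB and 0.0540 for FOS). The block rests on a pairing inferred from the data. The ratio of FOSL1 to FOS within an array was 1.60-fold higher in replicate 2.

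**Figure D2:**
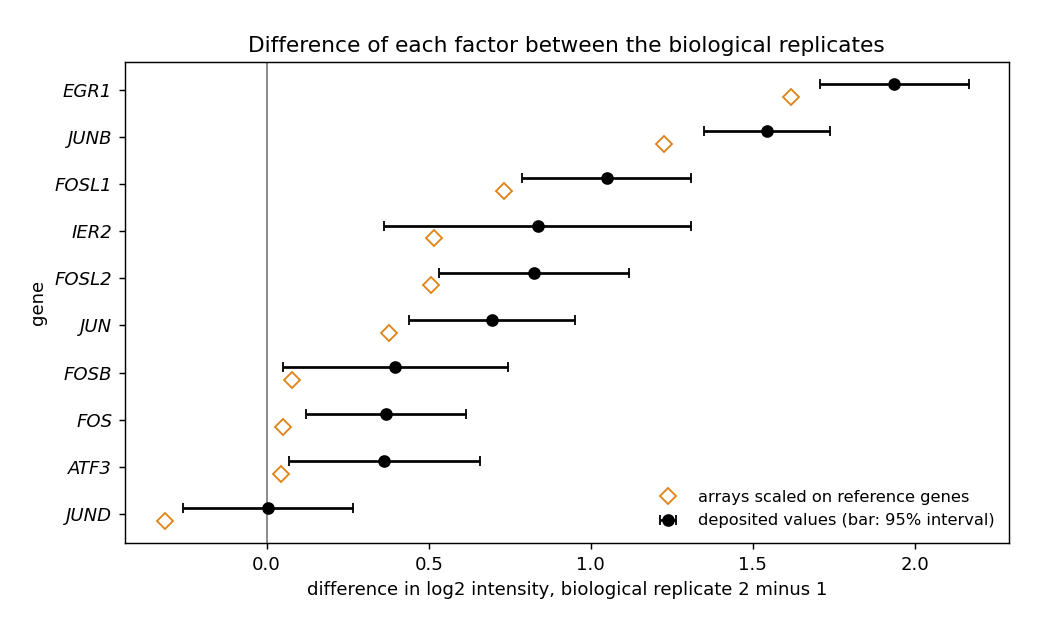
Difference in log2 intensity of each factor, biological replicate 2 minus biological replicate 1 (horizontal axis), with 95% intervals from limma as bars. Open diamonds give the same difference after scaling the arrays on 40 reference genes, which lowers every factor by 0.32 and leaves EGR1 at 1.62, FOS at 0.051 and JUND at -0.31.

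Over all 10 factors, 9 had arrays that did not overlap and were higher in replicate 2, against 26.6% of named genes, and JUND was the exception. How far the factors moved relative to each other was compared by their ratios within an array. Of the 45 pairs of factors, 27 had a within-array ratio whose arrays did not overlap between the replicates, and in 21 the exact two-sided permutation test over arrays gave 0.0286, the smallest p that 35 arrangements allow. After Benjamini-Hochberg adjustment over the 45 pairs the smallest value was 0.0612, so no pair passed. The 35 arrangements limit how small this value can be, whatever the size of a change, so no conclusion is drawn from it. Pairs of other genes were not counted, so the counts of 27 and 21 are not read as a trait of the factors. The ratio of EGR1 to JUND was 3.82-fold higher in replicate 2 and the ratio of EGR1 to JUNB 1.31-fold higher. FOSL1 against FOSL2 was 1.17-fold higher (exact permutation p = 0.114), and FOS, FOSB and ATF3 moved within 0.04 of each other on the log2 scale.

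The small differences depended on the scaling. The arrays had been quantile normalized, which gives all arrays 1 distribution. A set of 40 reference genes of translation and housekeeping stood 0.32 higher in replicate 2, and subtracting each array's median of them moved the median of all named genes by a like amount, to -0.32. The reference genes had a median level of 14.02, above every factor, and differences from -0.40 to 1.08, with 19 called higher and 1 lower. The background went the other way, at 7.24 in replicate 2 against 7.79 in replicate 1. Whether their offset holds for dimmer genes was not tested. On that scale EGR1, JUNB, FOSL1, FOSL2 and IER2 still passed, with differences of 1.62, 1.23, 0.73, 0.51 and 0.52. JUN passed too (adjusted p = 0.0177), but under background, so no size is given. FOS and ATF3 did not (adjusted p = 0.733 and 0.822), and JUND was at -0.31 (adjusted p = 0.0726). Of all called genes 19.0% were then higher in replicate 2, against 51.3% before. Which scale is the right one was not tested.

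**Figure D3:**
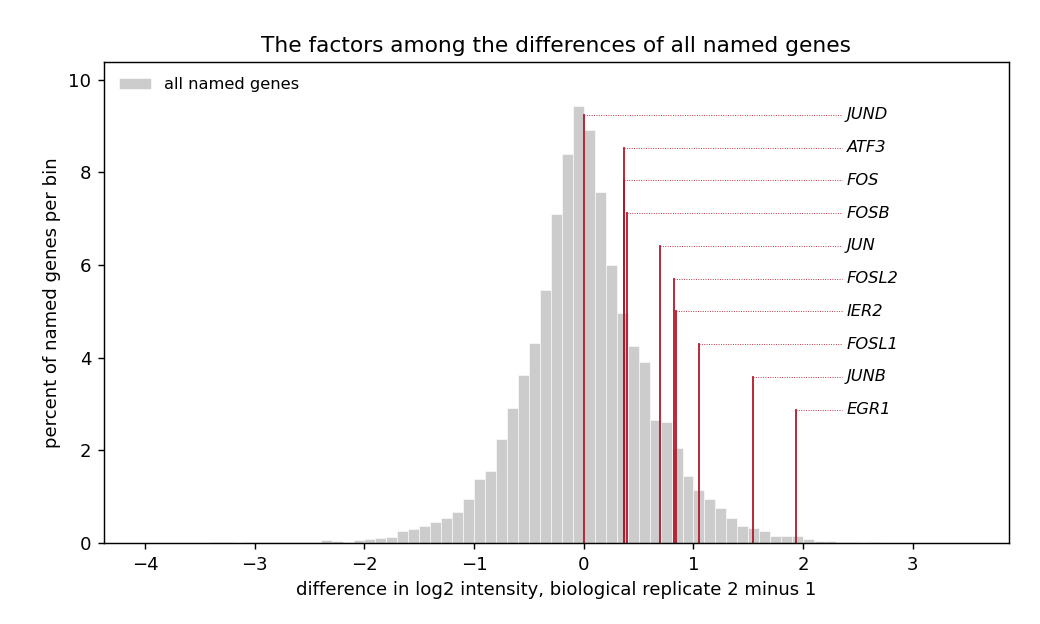
Distribution of the difference in log2 intensity, biological replicate 2 minus biological replicate 1, over 17217 named genes in bins of 0.1 (grey, percent of genes per bin), with a red line at the value of each factor. EGR1 (1.94) and JUNB (1.54) lie in the upper tail and JUND (0.0049) at the centre.

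Genes around AP-1 were counted in 7 lists, each to be read against the 25.5% of all named genes called higher and the 24.2% called lower. On the scale of the reference genes 1938 of the 17217 named genes were called higher and 8249 lower. Immediate early genes other than the 10 factors were mostly higher in replicate 2, with 19 of 29 called higher and 1 lower (13 and 4 on the scale of the reference genes), and a median difference of 0.49. The largest rises were those of CSRNP1, a nuclear factor induced by AXIN1, PTGS2, the inducible cyclooxygenase, and NR4A1, an orphan nuclear receptor. CSRNP1 (9.03 in replicate 2, against 6.99 in replicate 1) and PTGS2 (8.97 in replicate 2, against 6.95 in replicate 1) were under background in replicate 1 and so at least 2.36-fold and 2.26-fold higher, where each bound is taken against the background of the dimmer replicate. NR4A1 was at 10.09 ± 0.09 in replicate 2, against 8.52 ± 0.27 in replicate 1 (SD over 4 and 3 arrays), a difference of 1.58 (adjusted p = 2.2e-05). IER3, a regulator of survival under stress, was the 1 gene called lower, with a difference of -0.44 (adjusted p = 0.0115). The 2 genes taken for their high level were CCN1, a secreted matrix protein, at a difference of 0.34 (adjusted p = 0.0281, up to 0.0988 without 1 array), and ZFP36L1, an RNA decay factor, at 0.16 (adjusted p = 0.398). CCN1 also lost its call when the arrays were scaled on reference genes (adjusted p = 0.896).

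The EGR family and its NAB corepressors had 4 of 5 genes called higher and 0 lower (2 and 0 on the scale of the reference genes), with a median difference of 0.58. NAB2, which EGR1 induces and which then represses EGR1's activity, was at 12.31 in replicate 2, against 11.65 in replicate 1, a difference of 0.66 ± 0.10 (SE, adjusted p = 0.000596). NAB1, its relative, was at a difference of 0.058 (adjusted p = 0.82). EGR2, EGR3 and EGR4, the other 3 called genes, were under background.

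MAP kinase phosphatases and Sprouty inhibitors, many of which are made in response to the MAP kinase signal that they damp, had 11 of 17 genes called higher and 3 lower (7 and 5 on the scale of the reference genes), with a median of 0.49. The ERK phosphatases DUSP7 and DUSP6 rose by 1.65 ± 0.09 (SE, adjusted p = 3.99e-06) and 1.30 ± 0.15 (SE, adjusted p = 0.000145). DUSP6 stood at 10.75 in replicate 2, against 9.45 in replicate 1. DUSP4 was at 7.75 in replicate 2, against 6.14 in replicate 1, where it was under background, and no fold is given for it. SPRY4, a Sprouty inhibitor of receptor signalling, fell by 0.83 (adjusted p = 0.00201), and DUSP8, a phosphatase of the JNK group, was at 6.64 in replicate 2, against 7.59 in replicate 1 (adjusted p = 0.0119), under each replicate's own background.

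Of the 21 measured genes of the MAP kinase chain itself, 6 were called higher and 10 lower, with a median of -0.20. The share called higher was near the 25.5% of all named genes, and on the scale of the reference genes the counts were 5 and 12. MAPK3, the kinase ERK1, rose by 1.07 averaged over its 2 rows, which gave 1.53 and 0.62 (adjusted p = 4.26e-05), and the ribosomal S6 kinase RPS6KA1 rose by 0.80 (adjusted p = 0.000533). RPS6KA3 was at least 1.51-fold higher, since it was under background in replicate 1. MAP2K4, a kinase that activates JNK, fell by 1.49 ± 0.31 (SE, adjusted p = 0.00346) to 9.12 in replicate 2, against 10.61 in replicate 1. MAPK14, the kinase p38 alpha, fell by 1.0 (adjusted p = 0.000231), with its 2 rows at -0.48 and -1.52. RPS6KA2, another S6 kinase, was at 6.48 in replicate 2, against 7.57 in replicate 1 (adjusted p = 4.69e-05), and no fold is given because both values lay under their replicate's own background. MAP2K2, at a difference of 0.24, did not pass (adjusted p = 0.0605).

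Serum response factor and its cofactors had 2 of 6 genes called higher and 1 lower, with a median of 0.14, both shares near those of all named genes. On the scale of the reference genes 1 was called higher and 2 lower, against 1938 and 8249 of the 17217 named genes. MRTFA, the actin-sensing cofactor, rose by 0.65 (adjusted p = 0.00171) and ELK3, a ternary complex factor, by 0.58 (adjusted p = 0.000457, and 0.0767 when scaled on reference genes). SRF itself fell by 0.51 ± 0.09 (SE, adjusted p = 0.00146), at 11.19 in replicate 2, against 11.70 in replicate 1. ELK4, another ternary complex factor, was at 0.075 (adjusted p = 0.589), and its 2 rows went opposite ways, at 0.54 and -0.39.

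Other bZIP factors, the possible partners and relatives of AP-1, had 16 of 42 genes called higher and 7 lower, with a median of 0.16. On the scale of the reference genes 7 were called higher and 16 lower, with a median of -0.16. All 17217 named genes then had 1938 higher and 8249 lower, with a median of -0.32. CREB3L1, a membrane-bound factor of the secretory pathway, rose by 1.25 (adjusted p = 2.81e-05) and the C/EBP factor CEBPD by 1.22 (adjusted p = 1.64e-05). DBP, a factor of the circadian clock, was at least 2.41-fold higher, since replicate 1 was under its own background of 7.79, at 9.06 in replicate 2, against 7.57 in replicate 1. ATF5 fell by 1.01 (adjusted p = 0.00017), NFIL3, a repressor that opposes DBP, by 0.58 (adjusted p = 0.000604) and BACH2, a repressor that pairs with small Maf proteins, by 0.50 (adjusted p = 0.00422). The genes taken for their high level were NFE2L1, at a difference of -0.32 (adjusted p = 0.0251, up to 0.0755 without 1 array), and NFE2L3, at -0.13 (adjusted p = 0.318, and 0.0122 when scaled on reference genes).

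Textbook AP-1 target genes had 17 of 26 measured members called higher and 3 lower (11 and 6 on the scale of the reference genes), with a median of 0.64. The neutrophil chemokine CXCL8 was at 12.43 in replicate 2, against 9.05 in replicate 1, a difference of 3.39 ± 0.11 (SE, adjusted p = 5.74e-07). The metallothionein MT2A rose by 1.78 (adjusted p = 6.48e-06), the cytokine IL6 by 1.67 (adjusted p = 1.13e-05) and the monocyte chemokine CCL2 by 1.62 (adjusted p = 5.49e-06). EZR, the membrane linker ezrin, fell by 1.04 (adjusted p = 4.29e-05), while the cyclin CCND1 (-0.30, adjusted p = 0.0446) and the growth factor VEGFA (-0.29, adjusted p = 0.0219) lost their calls without single arrays (adjusted p of up to 0.155 and 0.0591). FSTL1, a secreted glycoprotein, was at 0.17 (adjusted p = 0.374). These genes respond to NF-kB and other factors too, and what part AP-1 had in their values was not tested. Across the 7 lists 75 genes were called higher and 25 lower, against 4398 and 4170 of the 17217 named genes. When the arrays were scaled on reference genes the counts were 46 and 45, against 1938 and 8249.

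**Figure D4:**
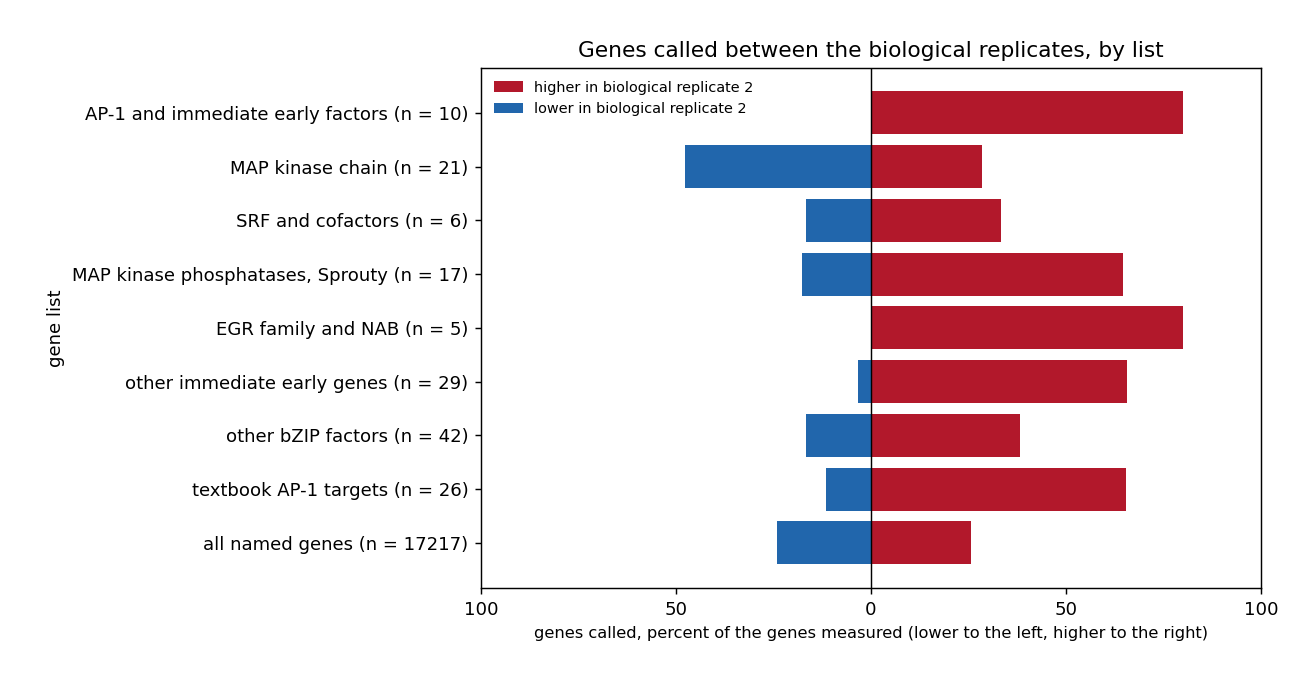
Genes called higher (red, right) and lower (blue, left) in biological replicate 2, as percent of the genes measured in each list (n in the row label). The 10 factors have 8 higher and 0 lower, the MAP kinase chain 6 higher and 10 lower of 21, and all named genes 25.5% higher and 24.2% lower.

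Of 15 stress genes of cultured cells, 14 were above background, and 9 were called higher in replicate 2 and 4 lower, against 25.5% and 24.2% of all named genes. On the scale of the reference genes 4 were called higher and 4 lower, against 1938 and 8249 of the 17217 named genes. HSPA1A, HSPA1B, HSPH1, DNAJB1 and HMOX1 lost their calls on that scale. On the deposited scale the mean level of the list was 10.13 to 10.28 on the arrays of replicate 2, against 9.66 to 9.86 on those of replicate 1. DDIT3, HMOX1 and VEGFA of this list also stand in the lists above. The largest difference of the 15 was that of CA9, at 9.08 in replicate 2, against 6.69 in replicate 1. CA9 was under background in replicate 1 and so at least 2.44-fold higher. The small heat shock protein HSPB1 rose by 1.97 (adjusted p = 3.58e-06), while CHAC1, a target of the ATF4 response, fell by 1.61 (adjusted p = 2.04e-05). Their part in the differences of the AP-1 factors was not tested. Markers of other cell types were at background for 19 of 20 genes, the exception being PECAM1 at 7.62 ± 0.26 (SD, n = 2), and the list's mean level was 6.10 to 6.18 in replicate 2, against 6.08 to 6.12 in replicate 1. Of 20 medulloblastoma and neuronal markers, 10 were above background, among them ENO2, PTCH1 and SMO, while ZIC1, NEUROD1 and BARHL1 were under background. The list had 4 genes called higher in replicate 2 and 8 lower, against 25.5% and 24.2% of all named genes. Of these calls 3 of the 4 and 4 of the 8 were of genes above background. On the scale of the reference genes 1 was called higher and 12 lower, against 1938 and 8249 of the 17217 named genes.

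Genes with the pattern most like the factors were sought over the 7 arrays among 9850 genes above background in both replicates. The measure was the root mean square distance between array profiles, each centred on its own mean, for which the median candidate stood at 0.41 from the median profile of the 10 factors. The nearest were GUK1, a guanylate kinase, at 0.043, the orphan nuclear receptor NR2F6 at 0.044, SEZ6L2, a neuronal membrane protein, at 0.056, MAPK7, the kinase ERK5, at 0.057 and the ribosomal protein RPL10A at 0.060. They stood 0.72 to 0.75 higher in replicate 2. For single factors the nearest genes were EGFL7 for EGR1 at 0.084, SDF2L1 for JUNB at 0.053, VKORC1L1 for FOSL1 at 0.051, BLVRA for FOSL2 at 0.054 and TAGLN2 for JUN at 0.056. RDH11 was nearest to IER2 at 0.093, FRMD3 to FOSB at 0.084, SNUPN to FOS at 0.040, PMVK to ATF3 at 0.040 and PHACTR2 to JUND at 0.065. These profiles rest mainly on the step between 2 replicates, which many genes share.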

How the data were processed

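Values were deposited by the authors as log2 intensities, 1 per RefSeq accession and array, and the submitters' processing notes name RMA and limma without versions. What the probes of a row are, and the build used upstream, is not given in the sources used. The base of the logarithm was taken as 2 by the convention of RMA. Sorted columns agreed within 0.002, so the arrays were already quantile normalized, and the median was 8.15 on each. Rows were named by unversioned accession through the RefSeq gene table of GRCh38.p14 (19125 of 24000 rows, 17217 genes), and rows of 1 gene were averaged. The replicates were compared with limma 3.58.1 (lmFit and eBayes, replicate 2 minus replicate 1, 7 arrays) across all named genes, and the fit was tested on simulated data. The simulated arrays were independent and only a set of genes was changed in them, so that test does not bear on a shift of slide or culture. The number of arrays limits the precision.

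The array number is shared by arrays of both replicates. Their deviations from the replicate means correlated at 0.21, 0.35 and 0.40 for arrays 1, 2 and 4, all over 0.1, and the number was treated as a pairing. Array 4 of replicate 1 also correlated at 0.20 with array 3 of replicate 2, so this cut does not single out arrays of the same number. The pairing rests on the data alone, since the labels do not say what the number stands for. Array 3 of replicate 1 was not analysed here, so array 3 of replicate 2 adds nothing to a difference in the block fit. Alternatives were a replicate block, leaving out each array, scaling on 40 reference genes, leaving out rows under background, a trended robust prior, the brightest row per gene, other backgrounds and a minimum difference of 1. The factors and lists were chosen with earlier results of these data known. Genes named from the lists are the 3 largest called rises and falls above background in at least 1 replicate, plus the 2 of highest level, and 1 gene that this rule names is not reported here. The factor pairs, the within-array ratios, the motifs and the stress genes named with values were chosen after the values were seen. Promoter windows are from RefSeq.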

Additional observations from a re-analysis of the deposited data

Results flagged for a closer look

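Of 66 genes named here or nearest to a factor, 5 had 1 array of biological replicate 2 that lay apart from the other 3 by Dixon's test at the 95% level, where chance alone marks about 1 in 20 groups. FOSB read 9.36 on array 4, against 8.83 to 8.84 on the others. JUN read 7.23 on array 1, against 7.02 to 7.04, all under background. RPS6KA3 read 7.88 on array 2 (others 8.50 to 8.61), SRF 11.31 on array 3 (others 11.14 to 11.16) and FRMD3, the gene nearest to FOSB, 9.32 on array 4 (others 8.76 to 8.85). FRMD3 was picked for its likeness to FOSB over the arrays, array 4 among them, so its flag is not separate from that of FOSB.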

How the results depend on the processing

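The count of factors called higher was 8 and ranged from 6 to 8 without single arrays. It was 9 with the array number as a replicate block and 8 with a trended robust prior or the brightest row. It was 7 without rows under background, which drops JUN, and 6 on the scale of the reference genes. Of the 17217 named genes 4398 were called higher on the deposited values, 4757 with the block and 1938 on the scale of the reference genes. Without rows under background 3033 of 10430 were called higher. No factor was called lower in any of these fits, and 9 factors stayed above background under every background tried. Apart from FOSB, the block, whose pairing was inferred from the data, changed no call of the factors or of the genes named from the pathway lists. The list counts without single arrays were 69 to 75 higher and 20 to 25 lower, and the called rows 5042 to 5575 higher and 4938 to 5509 lower. MAP2K2 passed with the trended robust prior (adjusted p = 0.0470) and without array 2 of replicate 2 (adjusted p = 0.0429). Scaling on reference genes moved the list counts to 46 higher and 45 lower, and the called rows to 2669 higher and 11453 lower, against 5895 and 5806. Requiring a difference of at least 1 left 1303 rows higher and 1150 lower, and leaving out rows under background left 3787 lower, with fewer rows tested. ELK4 turned to -0.39 with its brightest row. The 4 and 3 arrays, 1 slide per replicate and a background taken from other genes limit what these values can show.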
